A study of Homo sapiens with 4 samples.

Results

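Metallothionein and zinc-response genes were followed in LNCaP cells, a human prostate cancer line that responds to androgen and came from a lymph node metastasis, treated with an inhibitor of the KDM5 histone demethylases. The set is a list of 10 genes by symbol: the metallothioneins MT1E, MT1F, MT1G, MT1M, MT1X and MT2A, the transcription factor gene MTF1, the zinc exporter gene SLC30A1 and the zinc importer genes SLC39A10 and SLC39A6. These were 10 of the 60675 genes in the deposited files. The rule that picks them uses no measured value, but the genes were chosen with earlier results of these data known. All 4 RNA-seq libraries came from cells given 1 nM R1881, a synthetic androgen dissolved in ethanol, for 72 h. In 2 libraries the cells also received the DMSO vehicle, and in 2 they received 50 µM CPI-455, the KDM5 inhibitor, dissolved in DMSO. The sources do not give the same final DMSO level. Cells were kept without phenol red in serum that had been stripped of hormones, and no library without androgen entered the comparison. The replicates are described as biological, with no further word on how the cultures were kept apart, so p-values measure the spread between these libraries.

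Metallothioneins are small cysteine-rich proteins that bind zinc and copper, and most human genes for them lie in 1 cluster on chromosome 16. The zinc-sensing transcription factor MTF1 binds short metal response elements in DNA and raises transcription of metallothionein genes and of SLC30A1, whose product ZnT1 carries zinc out of the cell. ZIP10 and ZIP6, encoded by SLC39A10 and SLC39A6, carry zinc into the cell. Normal prostate epithelium is known for its high zinc content, which is lower in prostate cancer.

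The promoters of MT2A, MT1X and SLC30A1 are shown first. Among the genes of the set that had a promoter window, these held the most matches to the core of the metal response element. They did not change in the same direction. Each window runs from 250 bases before to 50 bases after a transcription start in RefSeq on GRCh38.p14, 5′ to 3′ on the strand of the gene, and capitals mark matches to TGCACNC or TGCGCNC on either strand. MT2A lies at chr16:56608334-56608633 on the plus strand, MT1X at chr16:56682220-56682519 on the plus strand and SLC30A1 at chr1:211579112-211579411 on the minus strand.
MT2A: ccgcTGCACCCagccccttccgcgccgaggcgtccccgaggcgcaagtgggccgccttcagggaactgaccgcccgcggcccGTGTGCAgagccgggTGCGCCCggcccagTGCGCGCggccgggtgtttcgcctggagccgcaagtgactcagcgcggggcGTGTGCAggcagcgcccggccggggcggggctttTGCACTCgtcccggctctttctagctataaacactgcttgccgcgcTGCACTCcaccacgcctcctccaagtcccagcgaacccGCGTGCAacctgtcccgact
MT1X: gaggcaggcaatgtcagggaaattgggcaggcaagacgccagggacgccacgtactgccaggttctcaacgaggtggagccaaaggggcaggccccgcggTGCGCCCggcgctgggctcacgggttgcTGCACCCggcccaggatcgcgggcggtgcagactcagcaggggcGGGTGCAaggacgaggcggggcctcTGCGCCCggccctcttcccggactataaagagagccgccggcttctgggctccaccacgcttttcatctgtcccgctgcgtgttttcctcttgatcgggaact
SLC30A1: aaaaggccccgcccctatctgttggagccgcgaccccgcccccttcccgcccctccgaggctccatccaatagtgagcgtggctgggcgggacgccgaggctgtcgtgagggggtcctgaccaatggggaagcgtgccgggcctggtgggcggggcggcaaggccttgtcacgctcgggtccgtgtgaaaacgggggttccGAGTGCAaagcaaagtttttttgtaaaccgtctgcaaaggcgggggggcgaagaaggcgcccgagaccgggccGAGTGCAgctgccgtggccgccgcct
The MT2A window held 8 matches, 5 on the strand of the gene and 3 on the other, and the first bases of the matches lay from position -246 to position 31 relative to the start. MT1X held 4 matches, from position -150 to position -53, and SLC30A1 held 2, both on the opposite strand. Of the 35116 windows of this length in the table, 29.6% held at least 1 match, 8.6% at least 2, 0.601% at least 4 and 0.0199% at least 8. SLC39A6 had 1 match, SLC39A10 had 0 and 1 in the windows of its 2 starts, and MTF1 had 0. Windows for MT1E, MT1F, MT1G and MT1M were not in the table used. A match is a string of letters and does not show that MTF1 is bound there.

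**Figure D1:**
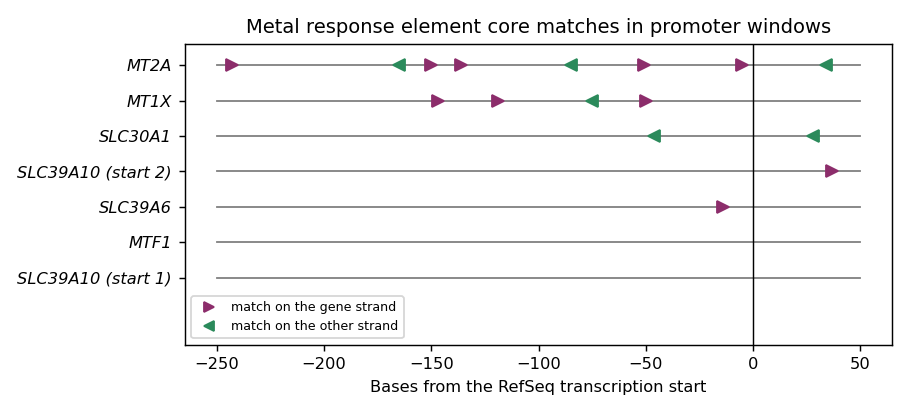
Matches to the metal response element core in the promoter windows of the 6 genes of the set with an entry, by distance in bases from the RefSeq transcription start. Each triangle is 1 match, pointing right on the strand of the gene and left on the other strand. MT2A carries 8 matches, MT1X 4 and SLC30A1 2.

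CPI-455 was accompanied by a rise of 3 of the 5 metallothioneins with any count and a fall of the 4 genes that are not metallothioneins. MT2A, MT1X and MT1G rose between 6.04-fold and 7.33-fold, whereas SLC39A10, SLC30A1, SLC39A6 and MTF1 fell by 2.36-fold to 5.53-fold. After removal of a trend on GC content and exon length, the rise was 3.51-fold for MT2A, 5.26-fold for MT1X and 3.17-fold for MT1G. The falls were then 3.78-fold for SLC39A10, 3.72-fold for SLC30A1, 2.13-fold for SLC39A6 and 1.78-fold for MTF1, which lost its call. MT1E and MT1M were at or near 0 counts in every library, and MT1F differed between the CPI-455 replicates. Counts were compared with edgeR's quasi-likelihood test, and a gene was called when its FDR (Benjamini-Hochberg) was below 0.05 and its change at least 2-fold. The test covered 17600 genes with enough counts, and 7 of the 10 genes were among them. All 7 were called without the trend removal, 3 higher and 4 lower. Among all tested genes 21.0% were called higher and 21.3% lower, and their median log2 fold change was -0.04. Groups that do not overlap say little alone with 2 libraries each. KLK2, KRT18, SLC39A7 and SLC30A3 did not overlap either, though they were not called. The share of all tested genes without overlap was not counted.

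**Figure D2:**
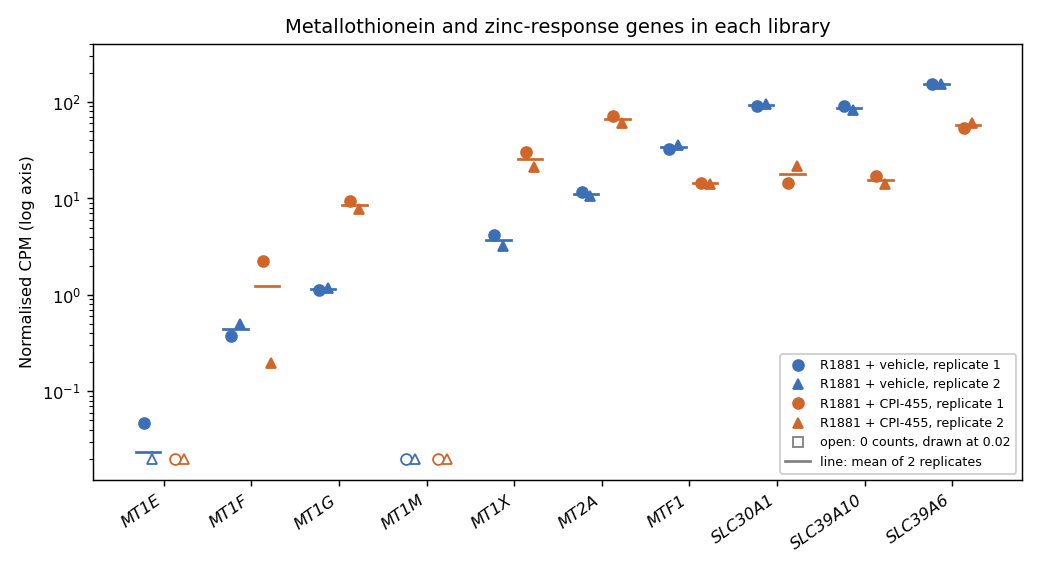
Normalised CPM (counts scaled to library size, log axis) of the 10 genes in each library, with circles for replicate 1, triangles for replicate 2, lines for the mean of 2 replicates and open symbols for 0 counts. MT1G, MT1X and MT2A are higher in both CPI-455 libraries than in either vehicle library, and MTF1, SLC30A1, SLC39A10 and SLC39A6 are lower. Genes that were not called could separate in this way too.

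The libraries differed in depth and makeup. The vehicle libraries held 19623553 and 20690819 counted fragments and the CPI-455 libraries 9522920 and 5401588. MALAT1, a nuclear long non-coding RNA, took 0.0884% to 0.114% of the counts with vehicle and 4.95% to 6.49% with CPI-455, while the mitochondrially encoded protein genes took 1.41% to 1.84% and 0.0791% to 0.0948%. The 9 luminal prostate markers were all detected, and 6 of them were called lower (21.3% of all tested genes were). KLK2, TMPRSS2 and KRT18 were not called, and KLK2 went the other way, with a log2 fold change of 0.56. The summed level was 882.5 to 957.2 CPM in the vehicle libraries against 383.5 to 437.6 CPM under CPI-455. KLK3 alone took a mean of 380.6 CPM of this with vehicle and 121.5 CPM with CPI-455. Summed markers of other cells stayed low: 0.189 to 1.24 CPM for basal epithelium, 4.03 to 10.7 CPM for fibroblasts, 0 to 1.56 CPM for endothelium and 0 to 0.90 CPM for immune cells. KRT5, a defining basal keratin, had 0 counts, and COL1A1, the 1 fibroblast gene with enough counts for the test, was called higher with CPI-455. Among the targets of CPI-455, the transcript of KDM5B was called lower (log2 fold change -1.07), and those of KDM5A and KDM5C were not called. With the trend removal described below for MTF1, KDM5B was not called and KDM5A was called higher (1.24). The part of these differences in the results below was not tested. In RNA from whole cultures, fewer cells of a type and less RNA per cell cannot be told apart.

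MT2A, at chr16:56608199-56609497 on the plus strand of GRCh38 (ENSG00000125148), encodes the most widely expressed metallothionein. It had 244 and 230 counts in the vehicle libraries and 640 and 308 in the CPI-455 libraries. The raw count was thus higher in both CPI-455 libraries although these were the shallower ones. Scaled to library size, MT2A stood at 11.6 and 10.5 CPM with vehicle, against 72.0 and 61.1 CPM under CPI-455. The means were 11.0 ± 0.722 CPM (SD, n = 2) and 66.5 ± 7.71 CPM (SD, n = 2), so the gap was far wider than the spread of either group. In edgeR's quasi-likelihood test the log2 fold change was 2.60 ± 0.167 (SE), with a Benjamini-Hochberg FDR of 2.292e-06. The log2 fold change was higher in 6.8% of the tested genes.

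MT1X (ENSG00000187193, chr16:56682424-56684196, plus strand), a metallothionein of subfamily 1, was the next most abundant of the cluster. It reached 4.17 and 3.21 CPM with vehicle, against 30.0 and 21.4 CPM under CPI-455. The groups did not overlap, and the CPI-455 replicates differed from each other more than the vehicle replicates did. The log2 fold change was 2.81 ± 0.272 (SE) in edgeR's quasi-likelihood test, at a Benjamini-Hochberg FDR of 2.136e-05. All 321 bases that its exon shares with another annotated gene belong to ENSG00000259827, which had 0 counts in every library. Fragments that fell in this shared stretch were not counted for either gene.

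MT1G (ENSG00000125144, chr16:56666731-56668065, minus strand) is another gene of subfamily 1. Its counts were 24 and 26 with vehicle, against 83 and 39 under CPI-455. These correspond to 1.14 and 1.19 CPM against 9.33 and 7.73 CPM, again without overlap. The log2 fold change of 2.87 ± 0.397 (SE) passed at an FDR of 1.980e-04 (edgeR's quasi-likelihood test, Benjamini-Hochberg). Its standard error was the largest of the 7 tested genes.

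MT1F (ENSG00000198417, chr16:56657694-56660698, plus strand) did not pass the filter on low counts. It had 8 and 11 counts with vehicle, but 20 and 1 with CPI-455, or 2.25 and 0.198 CPM against 0.379 and 0.504 CPM with vehicle. The vehicle values thus lay between the CPI-455 values. Without the filter its log2 fold change was 1.39, with a Benjamini-Hochberg FDR of 0.318 in edgeR's quasi-likelihood test. With CPI-455 replicate 1 left out the value was -1.14, and with CPI-455 replicate 2 left out it was 2.29, so its sign rested on a single library.

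MT1E (ENSG00000169715, chr16:56625475-56627112, plus strand) had 1 count in all, in vehicle replicate 1, and MT1M (ENSG00000205364, chr16:56632233-56633986, plus strand) had 0. At these depths 3 counts correspond to 0.137 to 0.142 CPM with vehicle and to 0.337 to 0.595 CPM with CPI-455, which is the level that a count of 0 still allows. Such limits, and the intervals below, cover counting error only. A difference of MT1E or MT1M between the groups was not detectable at this depth.

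Near-identical sequence limits how surely single metallothionein genes are measured, since fragments that matched several places were left out of the counts. Of the exon bases of MT1M, 54.4% lay in stretches of 31 bases that occur elsewhere in the genome. The share was 43.4% for MT1E, 35.9% for MT1G, 21.8% for MT2A, 13.8% for MT1F and 12.4% for MT1X. For the other 4 genes of the set it was 4.16% or less. Low counts of MT1M and MT1E are therefore uncertain as levels.

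The shares of MT2A, MT1X and MT1G in the metallothionein signal stayed close between the groups while the total rose. Summed over the 6 genes, the level was 17.3 and 15.4 CPM with vehicle, against 113.6 and 90.4 CPM under CPI-455. MT2A supplied 66.8% (Wilson 95% interval 61.9% to 71.5%) and 68.2% (63.1% to 73.0%) of these counts with vehicle. With CPI-455 it supplied 63.4% (60.3% to 66.3%) and 67.5% (63.1% to 71.7%), and the 4 intervals overlapped. MT1X gave 20.8% to 24.1% with vehicle and 23.7% to 26.4% with CPI-455, and MT1G 6.58% to 7.72% and 8.22% to 8.55%. MT1F gave 2.19% and 3.26% with vehicle, against 1.98% and 0.219% with CPI-455. Its interval in CPI-455 replicate 2 (0.0387% to 1.23%) lay below that of vehicle replicate 2 (1.83% to 5.75%) and overlapped that of vehicle replicate 1 (1.11% to 4.26%).

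Along the cluster, the window of 100 kb on either side of the outermost metallothioneins of the set held 24 annotated genes, of which 9 had any count. It included 16 metallothionein genes and pseudogenes, 6 of them with counts. BBS2, which encodes a subunit of the ciliary BBSome and lies on one side of the cluster, was not called (log2 fold change 0.36, Benjamini-Hochberg FDR 0.0749, edgeR quasi-likelihood test). NUP93, a nuclear pore gene on the other side, had a log2 fold change of 0.16 and a Benjamini-Hochberg FDR of 0.31 in the same edgeR test. The difference between the cluster and its neighbours was not itself tested. Of all 11 functional metallothionein genes listed, 5 had any count, and MT1A, MT1B, MT1H, MT3 and MT4 had 0 like MT1M. The windows of MT1H, MT1B and MT4 held 8, 3 and 3 matches to the metal response element core, so undetected genes of the family carried matches too. Of the exon bases of MT1H 51.7%, and of those of MT1A 38.5% and MT1B 22.9%, lay in stretches of 31 bases found elsewhere in the genome. Their counts of 0 are therefore uncertain as levels. Of 9 listed pseudogenes 4 had counts and 0 were tested. The pseudogene MT1P1 had 2 and 5 counts with vehicle, against 13 and 3 under CPI-455. MT1XP1 had 13 and 4 against 6 and 0, MT1DP 0 and 0 against 9 and 0, and MT1HL1 1 and 0 against 0 and 0. These counts are not scaled to depth.

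**Figure D3:**
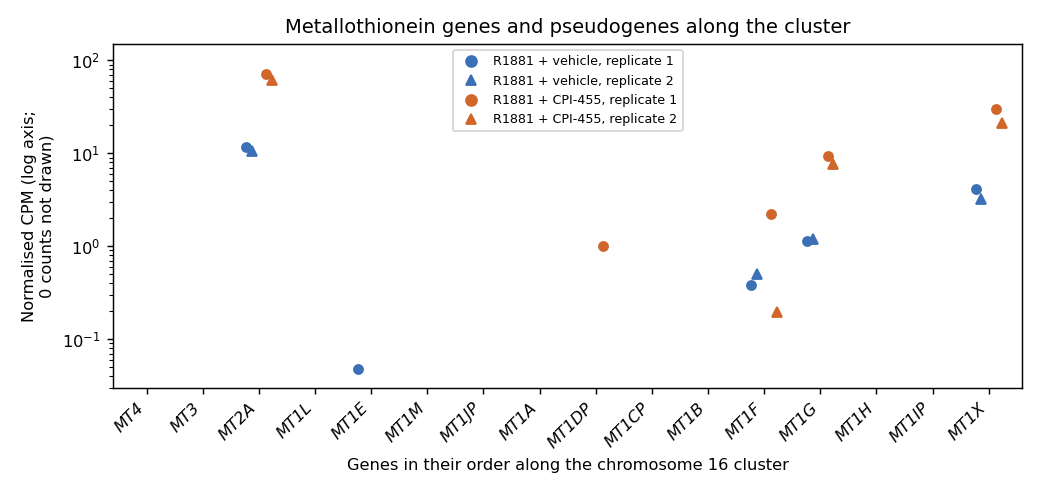
Normalised CPM (log axis) of the metallothionein genes and pseudogenes in their order along chromosome 16, by library. Genes without a symbol drawn had 0 counts, and MT2A, MT1G and MT1X, at separate places in the cluster, are higher in both CPI-455 libraries.

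MTF1 (ENSG00000188786, chr1:37809567-37859620, minus strand), the zinc sensor itself, fell at the transcript level. Its level was 32.6 and 35.5 CPM with vehicle, against 14.5 and 14.3 CPM under CPI-455. The replicates of each group lay close together and the groups did not overlap. The log2 fold change was -1.24 ± 0.177 (SE), or 2.36-fold lower, at a Benjamini-Hochberg FDR of 2.433e-04 in edgeR's quasi-likelihood test. With the smooth dependence of counts on exon GC content and length removed from each library the value was -0.83, under the 2-fold threshold, and the call was lost (FDR 0.00155, same test and adjustment).

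SLC30A1 (ENSG00000170385, chr1:211571568-211578742, minus strand), the exporter gene and known target of MTF1, moved opposite to the metallothioneins. Its counts were 1903 and 2074 with vehicle, against 129 and 109 under CPI-455. Scaled to library size these were 90.09 and 94.96 CPM against 14.5 and 21.6 CPM, well apart. The fall was 5.25-fold, a log2 fold change of -2.39 ± 0.188 (SE) with a Benjamini-Hochberg FDR of 6.551e-06 in edgeR's quasi-likelihood test. Per kilobase of exon (RPKM), MT2A stood at 0.54 and 0.467 of the level of SLC30A1 in the vehicle libraries and at 20.9 and 11.9 times its level in the CPI-455 libraries.

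SLC39A10 (ENSG00000196950, chr2:195575977-195737702, plus strand) fell as well, and which of it and SLC30A1 fell further changed with the library left out. It reached 91.5 and 83.4 CPM with vehicle, against 17.0 and 14.3 CPM under CPI-455. The fold was 5.53, with a log2 fold change of -2.47 ± 0.159 (SE) and a Benjamini-Hochberg FDR of 2.357e-06 by edgeR's quasi-likelihood test. SLC39A6 (ENSG00000141424, chr18:36108532-36129385, minus strand) was the most abundant gene of the set with vehicle and fell less. Its level was 154.7 and 155.4 CPM with vehicle, against 54.3 and 60.7 CPM under CPI-455. The log2 fold change was -1.44 ± 0.122 (SE), a 2.71-fold fall, at an FDR of 1.012e-05 (edgeR's quasi-likelihood test, Benjamini-Hochberg). Because the importers fell to different degrees, the RPKM ratio of SLC39A6 to SLC39A10 went from 3.18 and 3.5 with vehicle to 6.01 and 7.98 in the CPI-455 libraries. Fewer tested genes had lower values than SLC39A10 (4.76%) and SLC30A1 (5.16%) than had lower values than SLC39A6 (15.2%) and MTF1 (18.8%).

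The order of the genes by RPKM, a level per kilobase of exon, differed between the groups. With vehicle SLC39A6 led at 42.1 ± 0.141 RPKM (SD, n = 2), followed by SLC30A1 at 16.9, SLC39A10 at 12.6, MT2A at 8.50, MTF1 at 4.25, MT1X at 2.08 and MT1G at 1.55. In this order no neighbours overlapped between replicates. With CPI-455 MT2A led at 51.2 ± 5.93 RPKM (SD, n = 2), ahead of SLC39A6 at 15.6, MT1X at 14.5, MT1G at 11.4, SLC30A1 at 3.30, SLC39A10 at 2.26 and MTF1 at 1.79. Here SLC39A6 and MT1X overlapped between replicates, as did MT1X and MT1G. The exon models of MT2A and MT1X are single blocks that include intron sequence, so their RPKM refers to a longer stretch than the mature transcript. The model of MT1G has 2 blocks, and whether it too is longer than the mature transcript was not examined.

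Other zinc transporters were mostly lower with CPI-455 as well. Of 10 listed exporters (the SLC30 family) 9 were tested, 6 were called lower (21.3% of all tested genes were) and 0 higher, and their median log2 fold change was -1.50. Besides SLC30A1, the lower ones were SLC30A4 (-2.44), SLC30A6 (-2.04), SLC30A7 (-1.40), SLC30A9 (-1.28) and SLC30A5 (-1.25), of which SLC30A5, SLC30A6 and SLC30A7 load zinc into the secretory pathway. SLC30A3, SLC30A8 and SLC30A10 were not called, and SLC30A3 had a log2 fold change of 0.68. With the length and GC trend removed, 3 exporters were called lower, namely SLC30A1, SLC30A4 and SLC30A6. Of all tested genes 3263 were called lower in that setting, against 3756 without it.

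Of 14 listed importers (the SLC39 family) 12 were tested, 8 were called lower and 2 higher (21.3% and 21.0% of all tested genes were), and their median log2 fold change was -1.49. Next to SLC39A10, the lowest values were those of SLC39A9 (-2.37) and SLC39A8 (-2.10). SLC39A1, the main importer described for prostate cells, had a log2 fold change of -1.69, and SLC39A14, SLC39A3 and SLC39A11 were called lower too. With the length and GC trend removed, SLC39A11 (-0.76) lost its call and 7 importers were called lower, beside 3263 of all tested genes. SLC39A7, which releases zinc from the endoplasmic reticulum, was not called at -0.79, and neither was SLC39A13 at 0.74. The 2 importers called higher were SLC39A4 (1.13), the intestinal importer, and SLC39A5 (2.62). SLC39A5 rested on few counts, 10 and 9 with vehicle, against 35 and 7 under CPI-455. Without CPI-455 replicate 1, or without vehicle replicate 2, 0 importers were called higher, and without vehicle replicate 1 the number was 1.

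**Figure D4:**
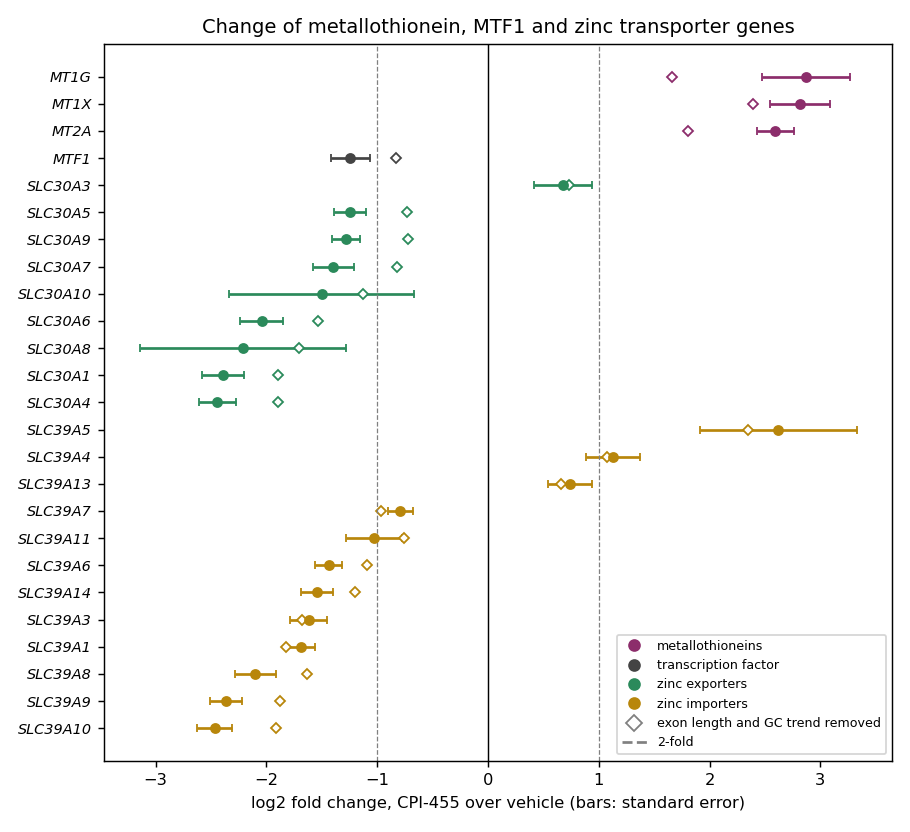
Log2 fold change (CPI-455 over vehicle) with its standard error for the tested metallothioneins, MTF1, zinc exporters and zinc importers. Open diamonds give the value after removal of the GC content and exon length trend, and dashed lines mark 2-fold. The 3 metallothioneins lie above 2-fold in both versions, and MTF1 lies beyond 2-fold only without the trend removal. Without it 14 of the 21 transporters are called lower, beside 21.3% (3756) of all tested genes. With it 3 exporters and 7 importers are, beside 3263 of all tested genes.

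Copper handling genes, which share metallothioneins as a buffer, were mixed. Of 12 listed, 11 were matched by symbol and 10 tested, with 5 called higher and 3 lower, beside 21.0% and 21.3% of all tested genes. The copper chaperone genes CCS (1.88), COX17 (1.57) and ATOX1 (1.05) rose, as did COMMD1 (1.61) and SOD1 (1.10), whereas the copper importer gene SLC31A1 (-2.03), the copper pump gene ATP7A (-1.92) and SCO1 (-1.05) fell on the log2 scale. ATP7B and COX11 were not called. After the GC content and length trend was removed, SOD1 (0.77) and SCO1 (-0.59) lost their calls, which left 4 higher and 2 lower. That setting called 3610 of all tested genes higher and 3263 lower. Without the filter on low counts ATOX1 (0.89) and SOD1 (0.95) lost their calls, which left 3 higher and 3 lower. There 3311 genes were called higher and 4533 lower in all. The median log2 fold change of the 10 genes was 0.75.

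The changes of the set went with properties of the genes that run through the whole dataset. Exons of the tested metallothioneins span 750 to 1773 bases, and those of the 4 other genes 3682 to 8024 bases. Among 734 tested protein-coding genes in the first length range, 28.1% were called higher and 11.7% lower, and the median of their log2 fold changes was 0.48. Among 6600 in the second range, 14.3% were called higher and 27.3% lower, with a median of -0.33. The 3 metallothioneins thus stood beside a background that leaned upwards, and the 4 other genes beside one that leaned downwards. Median log2 fold changes also followed exon GC content, from -0.53 at up to 40% GC to 0.26 above 60%. Of the protein-coding genes with up to 40% GC 30.6% were called lower, and of those with 40% to 45% GC 29.5%. Exon GC was 54.0% to 59.0% in the tested metallothioneins, 46.7% in MTF1 and 38.0% to 41.8% in the transporter genes of the set. The 4 zinc transporters with a positive log2 fold change had 57.0% to 62.1% GC, and the 17 with a negative one 36.2% to 59.6%.

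With the trend on length and GC content removed, MT2A was 3.51-fold higher (log2 fold change 1.81) and MT1G 3.17-fold higher (1.67), both under the values without that step, and MT1X had a log2 fold change of 2.40. SLC30A1, SLC39A10 and SLC39A6 had values of -1.90, -1.92 and -1.09. All of these 6 calls were kept, and the call of MTF1 was the one lost. The trend was fitted over all tested genes with a known GC content, whereas the backgrounds by length and GC content given above are of protein-coding genes only. The part of length and GC content in the changes was otherwise not tested.

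**Figure D5:**
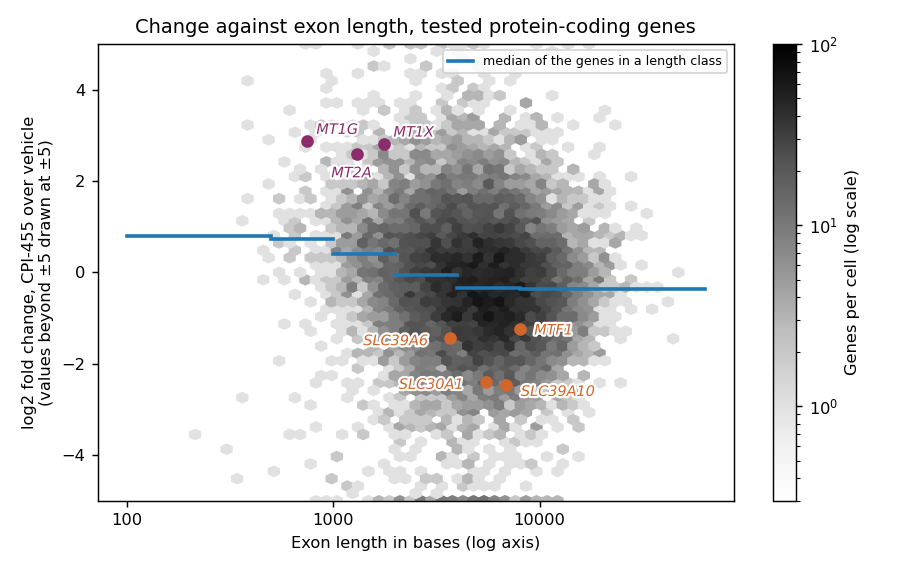
Log2 fold change (CPI-455 over vehicle) against exon length (log axis) for the tested protein-coding genes, with grey shades for the number of genes per cell and blue lines for the median of each length class. The class medians are 0.8 for the 12 genes with exons of up to 500 bases, 0.733 for exons of 500 to 1000 bases and -0.367 for those over 8000 bases. MT1G, MT1X and MT2A lie well above the lines and MTF1, SLC30A1, SLC39A10 and SLC39A6 below them.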

How the data were processed

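Genes were taken by symbol from 4 deposited files, 1 per library, each holding raw counts of fragments per gene. The authors trimmed the reads (Trim Galore), used STAR for alignment to GRCh38 and featureCounts v1.5.0-p1 with the exons of Ensembl 83 for counting, and deposited the counts without normalization. Counting ignored strand and dropped fragments that aligned to more than 1 place or gene, so near-identical copies and overlapping genes are uncertain. Groups came from the sample labels. Total counts per library ranged from 5401588 to 20690819. Counts were analysed with edgeR 4.0.16 in R 4.3.3: filterByExpr (minimum count 10), TMM factors, glmQLFit and glmQLFTest without covariates, and Benjamini-Hochberg FDR over 17600 genes. CPM are scaled by TMM, and RPKM are CPM per kilobase of exon, given as mean ± SD. Log2 fold changes are CPI-455 over vehicle. Their standard errors (SE) were derived from the test, as the size of the log2 fold change over the square root of the F statistic.

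The genes and the lists named (functional metallothioneins and their pseudogenes, SLC30 and SLC39 transporters, copper handling genes, neighbours within 100 kb, KDM5 genes, cell type markers) were chosen with earlier results of these data known, and genes were named from these lists. No test was made over a list. Alternatives were RLE and upper-quartile factors, library totals only, TMM without mitochondrial genes and MALAT1, no filter, DESeq2 1.42.0, the likelihood-ratio test, a replicate block, offsets that remove a smooth dependence on GC content and exon length (mgcv 1.9.3) with and without the block, and leaving out each library. On simulated counts for 17141 genes, with a log2 fold change of 1.5 given to 200, the test called 94.5% of the changed genes and 3 others. The changed genes were drawn from those with higher counts, all genes had a common dispersion, and no length or GC trend was simulated. These rates therefore need not hold for the real comparison. Replicates correlated at 0.993 with vehicle and 0.946 with CPI-455. Promoter windows are from RefSeq (GRCh38.p14) and matched 6 of the 10 genes. Not every gene of the KDM5 family is reported here. Splicing and the reads themselves were not analysed here.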

Additional observations from a re-analysis of the deposited data

How the results depend on the processing

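The 7 tested genes of the set were recomputed under 14 alternatives, which gives 98 values. All kept their direction, and 96 kept their call, the other 2 being MTF1 with the length and GC trend removed, without and with the replicate block (-0.83 and -0.82). Log2 fold changes ranged from 1.67 to 3.05 for MT1G, 2.39 to 2.99 for MT1X, 1.81 to 2.77 for MT2A, -2.72 to -1.89 for SLC30A1, -2.66 to -1.92 for SLC39A10, -1.63 to -1.09 for SLC39A6 and -1.43 to -0.82 for MTF1. The median of the metallothioneins (2.81) was 1.81 with the trend removed, 1.81 with the trend removed and the replicate block, and 2.52 to 2.95 with 1 library left out. Exporters called lower went from 6 to 3 with the trend removed, with or without the block. They numbered 7 with library totals only and 8 with the likelihood-ratio test. Importers called higher went from 2 to 1 with library totals only or no filter, and lay between 0 and 2 with 1 library left out. Members called higher numbered 4 without CPI-455 replicate 2, the added gene being MT1F. Both groups have replicates 1 and 2 in the labels, but nothing says that equal numbers mark shared cultures, and same-numbered libraries deviated from their group means with a correlation of 0.04. The replicate block changed no call of the set (MT2A 2.59). Over all genes, 3128 were called higher and 4563 lower with library totals, 4298 and 3096 with upper-quartile factors, and 3698 and 3756 with TMM. The median over all tested genes moved by 0.175 with upper-quartile factors, -0.189 with library totals, -0.155 without the filter and 0.107 with the trend removed. With 1 library left out, the lone library was assumed to vary like the other group. With 2 libraries a group, and the lower depth with CPI-455, low metallothioneins could not be compared.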
